A study of Mus musculus with 2 samples.

Results

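The miR-181 family comprises 6 of the 1973 genes counted in these libraries, taken by gene symbol: Mir181a-1 and Mir181b-1 on chromosome 1, Mir181a-2 and Mir181b-2 on chromosome 2, and Mir181c and Mir181d on chromosome 8. MicroRNA (miRNA) reads were measured in mouse stomach of the B6NCrl strain at embryonic day 16.5, in 1 group of 2 biological replicates. Each replicate was a pool of healthy male and female embryos, 41 of them in replicate 2, while the labels give no number for replicate 1. No genetic change or treatment is named, and no second tissue or age was present, so the comparisons are among the 6 genes and between the 2 libraries. Whole stomach mixes many cell types, and a level cannot be divided into the number of cells and the amount per cell. In counted reads, Mir181c and Mir181d held most of the family total, and each of the other clusters had 1 gene with many reads and 1 with few.

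A miRNA is cut from a hairpin RNA as a short strand, usually 1 from each arm of the stem, called 5p and 3p. The strand guides a silencing complex to messenger RNAs, mainly by pairing of its seed, bases 2 to 8. The miR-181 family is known best from lymphocytes, where miR-181a tunes the sensitivity of the T-cell receptor, and it has also been studied in neurons and in vascular endothelium. The family's 3 loci are paralogous pairs, each with an a-type hairpin (a-1, a-2 or c) followed by a b-type hairpin (b-1, b-2 or d) in the direction of transcription.

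The 5p arms are shown first, because they carry the shared seed and because 2 of them are identical between loci. They are RefSeq sequences on GRCm38.p6, 5′ to 3′, with the seed in capitals.
miR-181a-5p (Mir181a-1 and Mir181a-2): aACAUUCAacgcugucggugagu
miR-181b-5p (Mir181b-1 and Mir181b-2): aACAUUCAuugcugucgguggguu
miR-181c-5p (Mir181c): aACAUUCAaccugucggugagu
miR-181d-5p (Mir181d): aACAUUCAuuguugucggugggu

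All 6 genes thus share 1 seed on the 5p arm, and no other gene among the 1072 in the sequence table has a mature strand with that seed. Counted from base 1 of miR-181a-5p, the c strand differed by G11del alone, and the b strand by A9U, C10U, A21G and 22insU. Counted from base 1 of miR-181b-5p, the d strand differed by C12U and by U23del. The c strand therefore lies closest to a, and d closest to b.

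The 3p arms tell apart the loci that the 5p arms do not, so they are given in the same way.
miR-181a-1-3p: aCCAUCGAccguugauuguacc
miR-181a-2-3p: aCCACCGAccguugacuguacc
miR-181b-1-3p: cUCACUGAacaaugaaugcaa
miR-181b-2-3p: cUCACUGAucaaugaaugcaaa
miR-181c-3p: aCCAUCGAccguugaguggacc
miR-181d-3p: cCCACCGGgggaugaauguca

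The 6 strands of the 3p arm were all different and had 4 seeds. Mir181a-1 and Mir181c shared a 3p seed, and Mir181b-1 and Mir181b-2 shared another. The a-1 and a-2 strands differed by U5C and U16C, the first of which falls in the seed. Across both arms, the family has 12 combinations of gene and arm, and 4 of them have a sequence that a second gene also encodes. In the whole table, 54 of 1674 mature sequences (3.23%) are encoded by more than 1 gene.

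This bears on what a gene's row can hold. The authors' tables list reads placed in several positions as a total of their own, which made up 25.1% (replicate 1) and 25.2% (replicate 2) of the reads. It is inferred that no gene row holds them, and the tables do not divide this total by gene. The hairpins of the copies are printed with the longest stretch that both copies share in capitals.
Mir181a-1: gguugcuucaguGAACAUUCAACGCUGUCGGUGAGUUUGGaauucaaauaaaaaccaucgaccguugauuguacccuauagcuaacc
Mir181a-2: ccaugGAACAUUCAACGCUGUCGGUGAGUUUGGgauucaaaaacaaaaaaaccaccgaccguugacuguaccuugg
Mir181b-1: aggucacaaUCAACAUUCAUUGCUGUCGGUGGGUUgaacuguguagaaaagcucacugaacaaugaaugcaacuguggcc
Mir181b-2: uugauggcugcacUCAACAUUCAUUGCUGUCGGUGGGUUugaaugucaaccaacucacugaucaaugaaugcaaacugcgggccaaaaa

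In the a hairpins the shared stretch was 28 bases long, and it reached 1 base before and 4 bases after the 5p strand. In the b hairpins it was 26 bases long, reaching 2 bases before the 5p strand and 0 after it. A read of the exact miR-181a-5p or miR-181b-5p sequence therefore matches both of its loci. Both strands of Mir181c and Mir181d, and the 3p strands of the other 4 genes, matched no other gene of the table, also when a shared stretch of 20 or 18 bases was enough. The rows of Mir181a-1, Mir181a-2, Mir181b-1 and Mir181b-2 are uncertain for this reason. Their values below are counted reads and not the level of miR-181a or miR-181b. How many reads of these strands lie in the total of several positions was not tested.

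Mir181c was the most abundant member in counted reads. Its hairpin occupies bases 84178873 to 84178961 of chromosome 8, minus strand (GRCm38, which mm10 names), in an intron of Nanos3, a gene known from germ cells. Its reads numbered 31533 in replicate 1 and 30014 in replicate 2. Its levels were 4077 and 3759 CPM (read counts scaled to parts per 1000000 of the sense-assigned reads), or 3918 ± 224 (SD, n = 2). Mir181d lies 85 bases downstream, from 84178716 to 84178787, in an intron of the same gene. It had 18625 and 15521 reads, or 2408 and 1944 CPM and 2176 ± 328 (SD, n = 2). On the CPM scale both genes were higher in replicate 1, and the values of c and d did not overlap. Mir181c was 1.69-fold above Mir181d in replicate 1 and 1.93-fold above it in replicate 2.

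On chromosome 1, nearly all counted reads belonged to the a-type hairpin. Mir181a-1, from 137966455 to 137966541 on the plus strand, lies in an intron of the noncoding gene Gm4258, and partly overlaps an exon of the noncoding gene A430106G13Rik. It had 6548 reads in replicate 1 and 7051 in replicate 2, or 847 and 883 CPM and 865 ± 25.9 (SD, n = 2). Mir181b-1, 97 bases downstream from 137966639 to 137966718, lies wholly in an exon of A430106G13Rik. It had 93 and 83 reads, or 12.0 and 10.4 CPM and 11.2 ± 1.15 (SD, n = 2), the lowest level of the family. The a-type gene was 70.4-fold above its neighbour in replicate 1 and 85.0-fold in replicate 2.

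On chromosome 2 the order within the pair was the opposite. Mir181a-2, from 38852735 to 38852810 on the plus strand, had 328 reads in replicate 1 and 288 in replicate 2, or 42.4 and 36.1 CPM and 39.2 ± 4.48 (SD, n = 2). Mir181b-2, 1019 bases further on from 38853830 to 38853918, had 4943 and 3834 reads, or 639 and 480.2 CPM and 559.7 ± 112 (SD, n = 2). Mir181b-2 was thus 15.1-fold above Mir181a-2 in replicate 1 and 13.3-fold above it in replicate 2. No gene is annotated across this pair on its own strand. On the other strand both hairpins lie in an intron of Nr6a1, which encodes an orphan nuclear receptor. Mir181b-2 also lies opposite to an exon of Gm44144, a gene model still to be tested experimentally, and the noncoding gene Nr6a1os ends 364 bases before Mir181a-2.

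**Figure D1:**
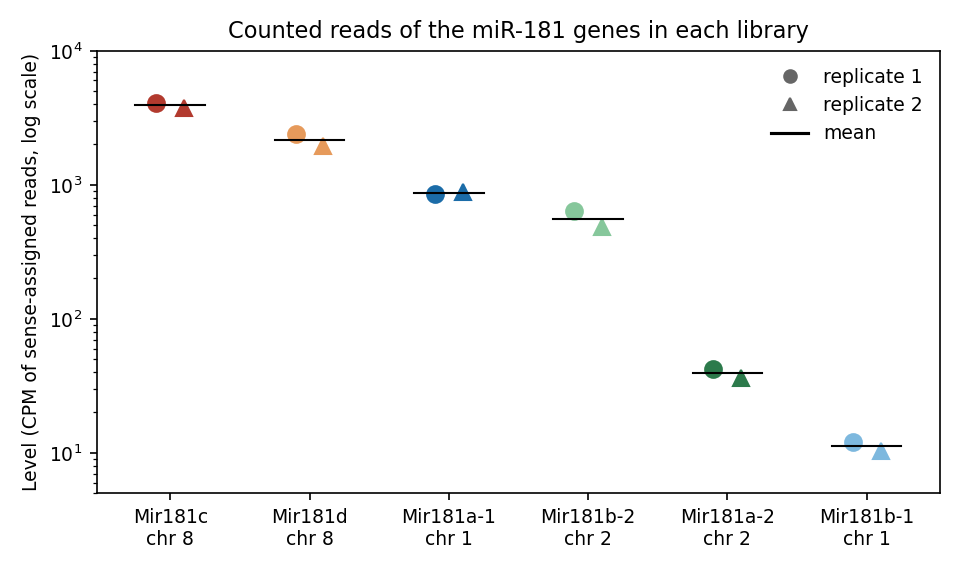
Level of each miR-181 gene in CPM of the sense-assigned reads, on a log scale, with a circle for replicate 1, a triangle for replicate 2 and a line at the mean. On this log scale the 2 libraries lie close together beside the range of the family, although Mir181b-2 stood at 639 and 480.2 CPM. The means run from 3918 CPM for Mir181c down to 11.2 CPM for Mir181b-1.

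The order Mir181c, Mir181d, Mir181a-1, Mir181b-2, Mir181a-2, Mir181b-1 held in both libraries, and each of the 5 gaps between neighbours was larger than the larger of the pair's SDs. The narrowest step in relative terms was that from Mir181a-1 to Mir181b-2, at 1.32-fold in replicate 1 and 1.84-fold in replicate 2. The widest was that from Mir181b-2 to Mir181a-2, at 15.1-fold and 13.3-fold. From the highest to the lowest gene the range was 339-fold in replicate 1 and 362-fold in replicate 2. A read is a whole short strand, so levels were not divided by the hairpin length, which ranged from 72 to 89 bases. The order is one of counted reads, and a bias between sequences common to both libraries would not show in these SDs.

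As a family, the 6 genes held 0.803% of the sense-assigned reads in replicate 1 (95% interval by the exact Clopper-Pearson method 0.796% to 0.809%), and for replicate 2 the share was 0.711% (0.706% to 0.717%). The chromosome 8 pair supplied 80.8% of these family reads in replicate 1 (exact interval 80.5% to 81.1%) and 80.2% in replicate 2 (79.8% to 80.5%). The chromosome 1 pair supplied 10.7% and 12.6%, and the chromosome 2 pair 8.49% and 7.26%. The share of the chromosome 8 pair was therefore nearly the same in both libraries. The shares of the pairs make up the whole, so the other pairs then have to move in opposite directions. Both genes of the chromosome 8 pair have strands of their own, and all 4 other genes share their 5p strand with a second locus, so these shares describe counted reads only.

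Within the pairs, the a-type gene took 98.6% of the reads of its cluster in replicate 1 and 98.8% in replicate 2 on chromosome 1. On chromosome 2 it took 6.22% and 6.99%. On chromosome 8 it took 62.9% and 65.9%. The means were 98.7%, 6.60% and 64.4%, and the SD over the libraries was at most 2.15 percentage points, so the 3 clusters did not overlap. Added over the 3 loci, the a-type hairpins held 61.9% of the family reads in replicate 1 and 65.8% in replicate 2.

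**Figure D2:**
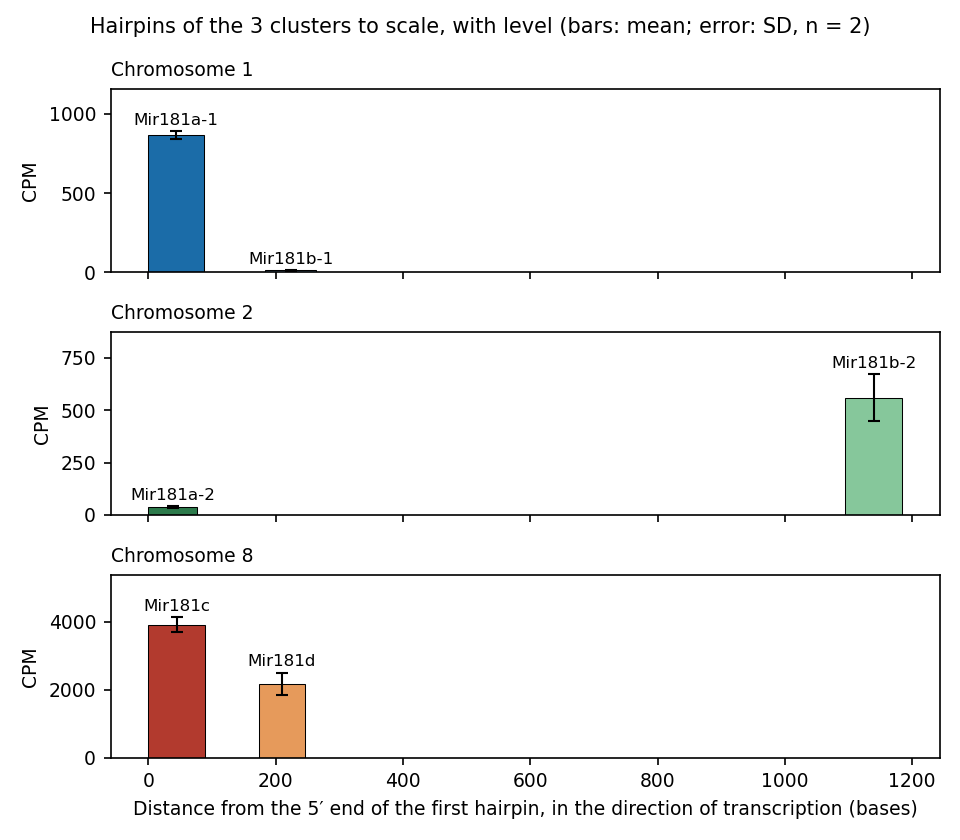
The hairpins of each cluster drawn to scale along the direction of transcription, in bases from the 5′ end of the first hairpin, with bar height as the mean level in CPM (error bars: SD, n = 2) on a separate linear axis for each chromosome. The first hairpin is the higher of the pair on chromosomes 1 and 8, and the second hairpin, 1019 bases away, is the higher on chromosome 2.

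None of the 6 genes had a read on the strand opposite to its hairpin in either library. The limit that such a 0 sets is 0.388 CPM for replicate 1 and 0.376 CPM for replicate 2, from 3 counts. Every member row thus held sense reads alone, including those of Mir181a-1 and Mir181b-1, opposite to which the noncoding gene Gm26936 is annotated.

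Among the 751 genes with a sense read, Mir181c ranked 44, Mir181d 63, Mir181a-1 101, Mir181b-2 117, Mir181a-2 234 and Mir181b-1 283 by mean level. In single libraries the ranks moved by at most 5 places, such as 284 and 279 for Mir181b-1. The genes nearest to Mir181c in level over the 2 libraries, by Euclidean distance in log2(CPM + 1), were Mirlet7b at 3959 ± 144 CPM, Mir130b at 3896 ± 434 CPM and Mir369 at 4180.5 ± 312 CPM (SD, n = 2). Each of these means differed from that of Mir181c by less than the larger SD of the pair, so their order relative to Mir181c is not settled. Those nearest to Mir181b-1 were Mir7688, Mir1968 and Mir302b, at 10.5, 10.3 and 12.5 CPM.

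**Figure D3:**
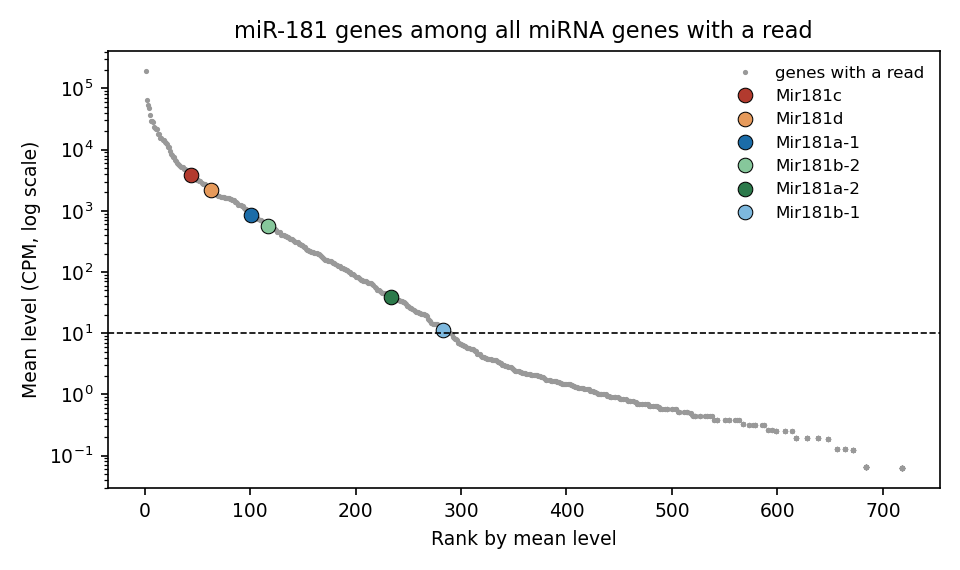
Mean level in CPM, on a log scale, against rank for the 751 genes with a sense read, with the miR-181 genes as coloured points and a dashed line at 10 CPM. The family spans ranks 44 to 283, and Mir181b-1 stands just above the line.

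The split of reads between copies was then set beside that in other families with numbered copies. Mir181a-1 held 95.2% of the reads counted for the 2 miR-181a genes in replicate 1 (exact interval 94.7% to 95.7%) and 96.1% in replicate 2 (95.6% to 96.5%). Mir181b-2 held 98.2% of those for the 2 miR-181b genes in replicate 1 (97.7% to 98.5%) and 97.9% in replicate 2 (97.4% to 98.3%). The favoured copy lay on chromosome 1 for a and on chromosome 2 for b. Of 21 other families with numbered copies, 14 had at least 100 reads in each library and rows for every copy, and in all 14 the copies share an identical mature strand. The share of their leading copy ran from 56.3% to 97.1%, with a median of 81.6%. It was above that of miR-181a in 2 of the 14, Mir92 (97.1% for Mir92-1) and Mir196a (96.1% for Mir196a-2), and above that of miR-181b in 0. The count is one of means and is not settled by library, since Mir103-2 held 96.9% in replicate 2, above Mir181a-1, and Mir196a rested on 229 and 120 reads. These shares are descriptions of reads placed in 1 position, and whether the missing reads divide in the same way was not tested.

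**Figure D4:**
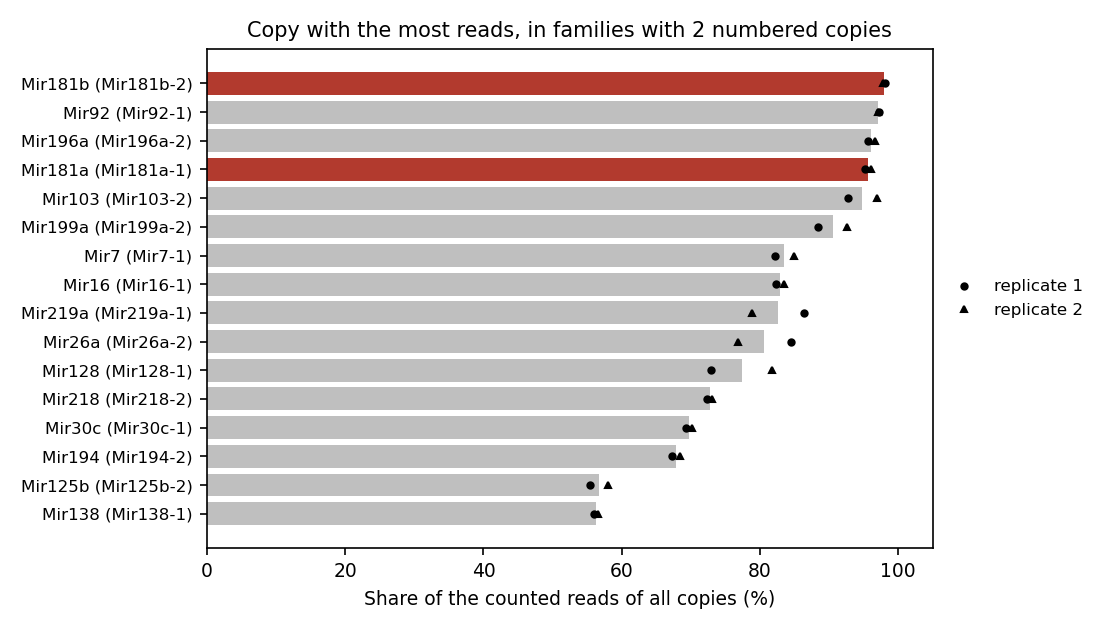
Share of the reads of all copies that the leading copy held, for miR-181a and miR-181b (red) and for 14 other families (grey), with bars at the mean and points for each library. The leading copy is named in parentheses, and the miR-181 families lie at 95.7% and 98.0%, near the upper end of the range.

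Single copies were also compared by level. Of 41 such genes of other families with a row, 25 reached 10 CPM in both libraries, 5 had no read, and the median level was 21.8 CPM. Its highest members were Mir92-1 at 2438 ± 981 CPM, Mir16-1 at 1022 ± 149, Mir125b-2 at 671 ± 26.8, Mir125b-1 at 513 ± 58.7 and Mir194-2 at 501 ± 41.5 (SD, n = 2). In this order Mir181a-1 fell between Mir16-1 and Mir125b-2, Mir181b-2 fell between Mir125b-2 and Mir125b-1, and Mir181b-1 lay below the list's median. The means of Mir125b-2 and Mir125b-1 each differed from that of Mir181b-2 by less than its SD of 112 CPM, so its place is not settled.

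The libraries were compared next, by a two-sided exact binomial test of each gene's 2 counts over the 289 genes whose mean level reached 10 CPM, after scaling with TMM (trimmed mean of M values). This sets 1 library against another of the same group, and the p-values carry counting error alone. The labels give both libraries the same donor entry, so they do not settle whether the pools were separate. With a Benjamini-Hochberg adjusted p under 0.05 and at least 2-fold, 0 of the 6 miR-181 genes differed, against 23 of the 289 genes (7.96%), 21 of them higher and 2 lower in replicate 1. Without a minimum fold, 4 of the 6 differed, against 220 of 289 (76.1%), 111 of them higher and 109 lower. With 6 genes, neither count can be told apart from the background share, and at this depth small folds pass the test in most genes.

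Mir181a-1 was lower in replicate 1, with a log2 ratio of -0.24 (95% interval -0.29 to -0.19, adjusted p = 2.61e-22 by the exact binomial test). Mir181b-2 was higher there, at 0.23 (0.17 to 0.29, adjusted p = 2.70e-13 by the same exact test). Mir181d was higher as well, at 0.13 (0.10 to 0.16). Mir181c was lower, at -0.07 (-0.09 to -0.04), but with scaling by total sense-assigned reads its sign turned, to 0.12. The intervals of Mir181a-2, at 0.05 (-0.18 to 0.28), and of Mir181b-1, at 0.03 (-0.41 to 0.47), both include 0. For Mir181b-1 the interval reaches 0.47 on the log2 scale, so a difference of that size is not excluded at this depth.

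All 6 genes lay within 1.5-fold between the libraries, as did 231 of the 289 tested. The median size of the log2 ratio, without its sign, was 0.10 in the family and 0.24 over all tested genes. With these factors Mir181a-1 had the largest ratio of the family and ranked 145 of 289 by that size. With total sense-assigned reads Mir181b-2 had the largest, at 0.41, and Mir181a-1 stood at -0.06. The coefficient of variation over the libraries in CPM was 20.1% for Mir181b-2, where counting error alone gives 1.51%, and 15.1% for Mir181d, where it gives 0.765%. For Mir181b-1 it was 10.3%, close to the 10.7% of counting error. These are values of 2 libraries on the CPM scale, and they include the shift that scaling makes.

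**Figure D5:**
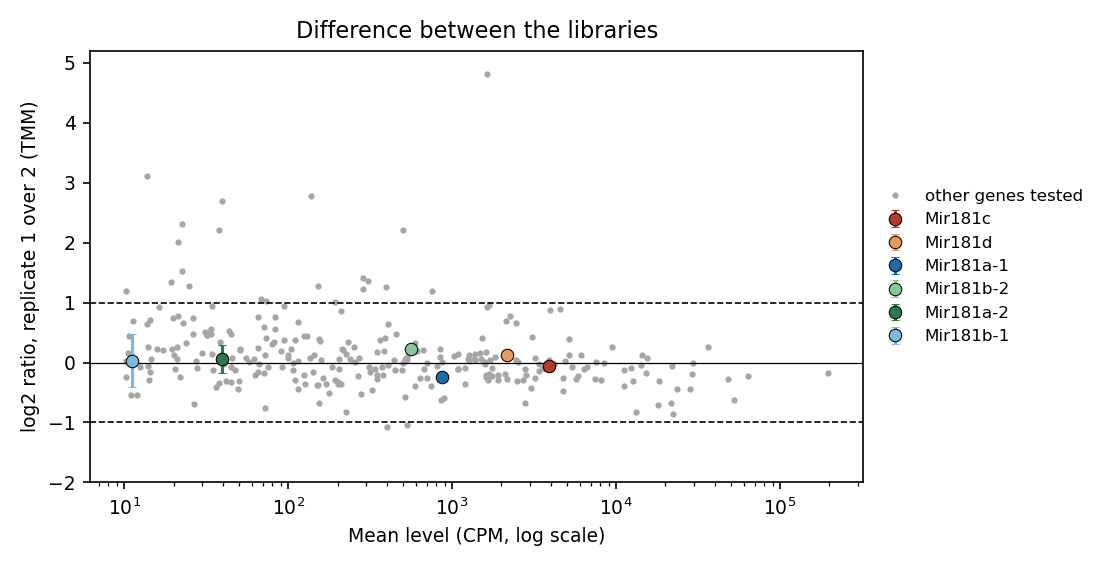
Log2 ratio of replicate 1 over replicate 2 after TMM scaling against mean level in CPM (log scale) for 289 genes, with 95% intervals for the miR-181 genes and dashed lines at 2-fold. The 6 members lie between -0.24 and 0.23, inside the dashed lines, where most grey points lie too.

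A second miRNA cluster lies 29556 bases from Mir181c, on the plus strand of chromosome 8. Its genes Mir23a, Mir27a and Mir24-2 stood at 18097 ± 4584, 514 ± 97.9 and 323 ± 44.5 CPM (SD, n = 2). Their log2 ratios between the libraries were -0.70, -0.57 and -0.46, against -0.07 for Mir181c and 0.13 for Mir181d. Mir24-2 shares a mature strand with Mir24-1, which has no row, so its values are uncertain like those of the miR-181a and miR-181b genes. None of the 5 genes passed the 2-fold threshold, and the difference between the 2 clusters was not tested.

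The libraries held 7734578 and 7983714 sense-assigned reads, 49.1% and 50.0% of all reads. Of 12 epithelial miRNA genes used to check the label, all reached 10 CPM in both libraries, including Mir375 and Mir203. The 2 smooth muscle genes summed to 202084 and 197398 CPM, of which Mir143 gave 196767 and 194858. Mir145a gave 5317 and 2540 CPM, with a log2 ratio of 0.88 after TMM scaling. Leukocyte genes, with 4 of 6 having a row under the symbol listed, summed to 1355 and 1248 CPM. Of these sums Mir223 gave 1240 and 1166, and Mir146b gave 0.13 and 0.38. The gene of miR-146a was listed as Mir146a but has its row as Mir146, so the sums leave it out. Its mean level was 116 CPM. Neural genes, with 10 of 11, summed to 1530 and 1234 CPM, of which Mir137 gave 1399 and 1126. Mir9-3 gave 2.20 and 1.75, and the defining Mir124a-1, Mir124a-2 and Mir124a-3 were at 0. Mir9-3 and the Mir124a genes are numbered copies, whose reads may lie in the total of several positions, so the low values and the 0s do not show absence. The endothelial gene Mir126a stood at 29028 and 29049 CPM. Striated muscle genes, with 9 of 10 having a row, summed to 3363 and 205 CPM, of which Mir206 alone gave 3184 and 99.8. Mir1b, too low to be tested, went the other way, at 1.03 and 2.76 CPM. The numbered copies Mir133a-1 and Mir133a-2 were at 0, which does not show absence either. At 2-fold, 3 of the 4 tested were higher in replicate 1, against 21 of all 289 tested genes, while Mir208b had a log2 ratio of 0.12. None of the 6 miR-181 genes passed that threshold, and the part of striated muscle in their smaller differences was not tested. Erythroid genes summed to 1240.0 and 591 CPM, with 1 of 3, Mir451a, higher in replicate 1 at 2-fold, while Mir144 had a log2 ratio of -0.38 and Mir486 of 0.07. The liver gene Mir122 stood at 1821 and 1210.1 CPM.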

How the data were processed

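The labels describe small RNA under 30 nucleotides from pooled stomach, in 2 replicates. Per the file headers, the authors deposited raw read counts per gene of GENCODE M4 on mm10, for both strands together and for each strand. For the aligner and the trimming, tools and versions were not given in the sources used here. Sense counts were used, without the summary totals. Symbols and positions came from GENCODE M21 on GRCm38 (1894 of 1973 identifiers matched), and sequences from RefSeq on GRCm38.p6, which held mature strands for all 6 members and hairpins for 5 (not Mir181c).

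TMM factors (edgeR 4.0.16, R 4.3.3) came from the tested genes (mean level of at least 10 CPM), with 0.5 added to each count for ratios. Factors from every gene with a read had been used first, and the choice was changed after their results were seen. The closing section gives both. The exact binomial test and intervals used scipy 1.17.1. DESeq2 1.42.0 gave other size factors. Intervals cover counting error only, since they are binomial and hold no spread between replicates. No molecular identifiers are named, so copies of 1 molecule could not be told from separate molecules. The test was checked on simulated Poisson counts, which have no spread beyond counting error. At 2-fold it called 100% of genes with a planted 3-fold, and 0% of those with 1.5-fold or no difference. Such counts cannot show how the test behaves with the spread between these libraries.

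The members and lists were chosen with earlier results of these data known. Named are all members, the 3 genes nearest in level to the highest and the lowest, the chromosome 8 neighbours, and up to 5 genes per list; Mir92-1, Mir196a-2 and Mir103-2 as leading copies were named after their values were seen. Alternatives were other scalings, denominators, strand counts, filters, folds and shared stretches, and each library left out.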

Additional observations from a re-analysis of the deposited data

How the results depend on the processing

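With all reads of a library as the denominator, which adds unassigned reads, the mean levels were 1942 CPM for Mir181c, 1078 for Mir181d, 429 for Mir181a-1, 277 for Mir181b-2, 19.4 for Mir181a-2 and 5.55 for Mir181b-1, and the family share was 0.375%. Without Mir143 in the denominator the family share was 0.941%. Counting both strands gave 838 CPM for Mir181a-1, a move larger than its SD. Scaling by total sense-assigned reads reversed the sign for Mir181c, to 0.12, and shifted the median over tested genes from 0.02 to 0.21 in log2 ratio. It moved Mir181a-1 from -0.24 to -0.06, Mir181b-2 from 0.23 to 0.41, Mir181d from 0.13 to 0.31, Mir181a-2 from 0.05 to 0.23 and Mir181b-1 from 0.03 to 0.21. The TMM factors of the report, from the tested genes, were chosen after seeing the data. Those used first, from every gene with a read, gave log2 ratios of -0.20 for Mir181a-1, 0.27 for Mir181b-2, -0.03 for Mir181c, 0.17 for Mir181d, 0.09 for Mir181a-2 and 0.07 for Mir181b-1, and 23 genes that differed (22 higher and 1 lower in replicate 1). No member's call or sign changed between the 2 sets of factors. The number of genes that differed was 55 with no filter on low counts (33 higher and 22 lower in replicate 1), 58 at 1.5-fold (44 and 14) and 220 with no minimum fold (111 and 109). The 85 other alternative values, those log2 ratios included, kept their direction and their call at 2-fold or moved by no more than 1 SD (counts of genes, by no more than 1.5 times). Among them was the count with total sense-assigned reads, at 29 genes, 29 higher and 0 lower in replicate 1. With 1 library left out, the family share was 0.711% to 0.803%, and a single library has no spread. No paired analysis was possible because the series has 1 group. Depth limits Mir181b-1 most, with 93 and 83 reads. The causes of these moves were not tested beyond the changed denominators and thresholds.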
